A study of Rattus norvegicus with 85 samples.

Results

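Kcna1 and Kcnma1, which encode potassium channels, each held 1 of the 146 sites of A-to-I editing (deamination of adenosine to inosine in RNA) measured by mmPCR-seq in rat brain and oocytes. The 2 sites were taken by gene name, whatever their values, and belong to the 41 nonsynonymous sites, at which editing changes the encoded amino acid. The annotation of these sites names 68 genes in all, which is not the number of genes that the paper states. The editing level is the percentage of reads at the site that carry G, the base as which inosine is read, and a level was used where a sample had at least 50 reads. Of the 72 brain samples, 72 passed that minimum at Kcna1 and 71 at Kcnma1. Of the 13 oocyte samples, none passed at Kcna1 and 6 passed at Kcnma1.

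Kcna1 encodes Kv1.1, a voltage-gated potassium channel of axons and nerve terminals that limits repetitive firing. Its edited codon lies in the segment that lines the inner pore, and channels with the edited residue are known to recover faster from the rapid inactivation that the auxiliary beta subunit or lipids impose. The hairpin that directs this editing is folded from coding sequence of an intronless gene, and ADAR2 (Adarb1) is the enzyme known to edit it. Kcnma1 encodes the pore-forming subunit of the BK channel, which opens on depolarisation and on a rise in calcium and shortens action potentials and transmitter release.

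All animals were Sprague-Dawley rats. The F0 groups were adult females at postnatal day (P) 60 (named adult control and adult PRS here), and the PRS animals had been stressed unpredictably for 7 days in adolescence, before reproduction. F1 newborns at P0 (O1-C and O1-PRS) were born to such dams, and F2 newborns at P0 (O2-C and O2-PRS) came, per the methods, from F1 males mated with naïve females, so that neither newborn group was itself stressed. Prefrontal cortex (PFC) and amygdala (AMY) were dissected from each, with 5 to 7 samples per group. The oocytes, 6 control and 7 PRS samples, came per the methods from unmated females after hormonal treatment. The labels do not say whether each oocyte sample came from a different female. The labels place the oocytes at P0 although they are of the F0 generation. The 23 adult samples were all female, the F1 samples were 9 females and 13 males, and the F2 samples were labelled as 13 females and 14 males. The methods describe F2 males, but also say that offspring of both sexes were pooled throughout. The labels name no litter, and the replicate numbers differ in every group, so the PFC and AMY samples of 1 animal could not be paired and p-values measure only the spread between samples. In dissected tissue, fewer cells that edit a transcript and less editing in each cell cannot be told apart, and the files hold no expression table against which the dissection could be checked.

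Brain samples had 149278 to 3274843 reads over the 146 sites and oocyte samples 18705 to 424442. At Kcna1 the brain samples had 762 to 20670 reads, and at Kcnma1 1129 to 167223 among those used. Kcnma1 depth moved with sets of 48 consecutive library numbers (sets 1 to 4 here). Its median was 69642 reads in set 3, which held F1 newborns only, against 4321 to 11684 in the others. One O2-C PFC sample (replicate 155) had fewer than 50 reads at 35.6% of the sites, among them 26 reads at Kcnma1. It was left out of the stress and generation comparisons and kept in the comparison of regions.

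The Kcna1 site lies at position 163012291 of chromosome 4 (rn4, minus strand) and is annotated Ile->Val. The Kcnma1 site lies at position 322937 of chromosome 15 (plus strand) and is annotated Ser->Gly. The primers are shown because every level below rests on the amplicon they delimit. They are written 5′ to 3′ without the 14- or 15-base tail that the primers of the panel share for barcoding. The bases shown, in capitals, are the rest of each primer, and they were not aligned to the transcript here.
Kcna1 forward: AATTGGACACAATGACAGGTAC
Kcna1 reverse: TCTTCATTGGCGTCATACTGT
Kcnma1 forward: AATGAGCAGCAATATCCACGC
Kcnma1 reverse: CACGGCACCTCCATGGTC
Each gene was therefore read through 1 amplicon of its own, and the sequence around the edited adenosine was not used here.

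Kcna1 levels of newborn and adult brain did not overlap. How many other sites separate over all these samples was not computed. In the single age comparisons 27.8% to 40.4% of the sites tested did. Over the 49 newborn samples it ran from 0.2% to 11.1% with a median of 3.1%, and over the 23 adult samples from 13.0% to 23.3% with a median of 17.6%. Ordered by mean level, the newborn PFC groups came lowest (O2-C 1.61%, O1-C 2.08%, O1-PRS 2.08%, O2-PRS 3.07%). The newborn AMY groups followed (O2-C 4.57%, O1-PRS 4.60%, O1-C 4.86%, O2-PRS 7.27%), and the adult groups came last (control PFC 16.9%, PRS PFC 17.0%, PRS AMY 17.8%, control AMY 18.8%). In this order the ranges of neighbouring groups overlapped at every step except that from O2-PRS AMY to adult control PFC. The spread between samples of a group was 2.29 to 12.8 times that expected from counting reads as independent molecules.

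**Figure D1:**
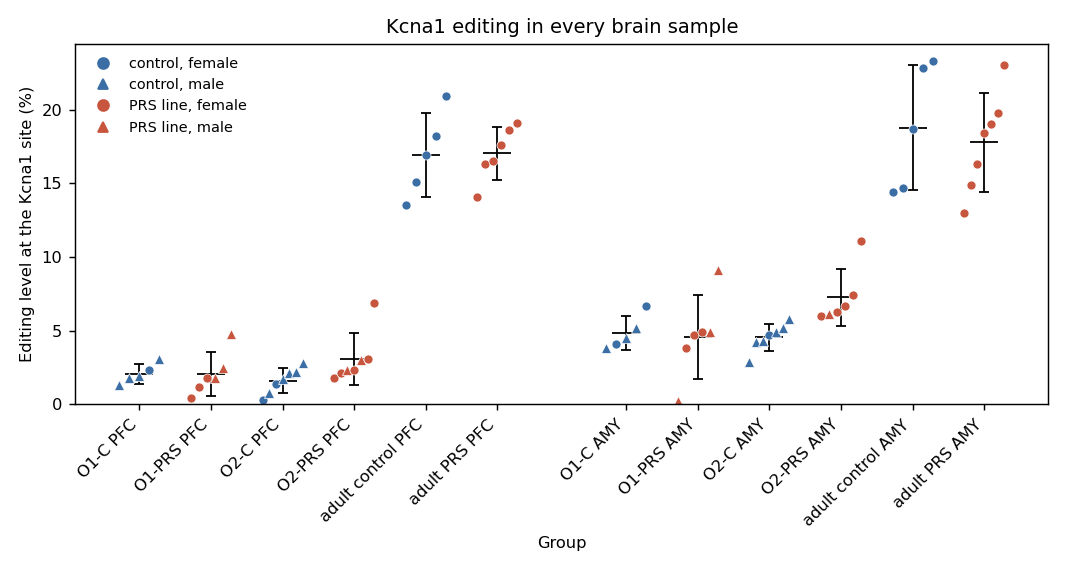
Kcna1 editing level (%) of each brain sample by group, with circles for females and triangles for males, the control line in blue and the PRS line in red. Horizontal dashes and bars give the mean and SD, and the 23 adult samples, at 13.0% to 23.3%, all sit above the 49 newborn samples, at 0.2% to 11.1%.

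Kcnma1 editing was lower and spanned a narrower range. Newborn samples ran from 0.6% to 4.7% with a median of 2.55% (n = 48), and adult samples from 2.9% to 7.7% with a median of 4.3% (n = 23). The lowest group mean was 1.82% in O2-C PFC and the highest 5.82% in adult control AMY. The 12 groups formed a continuous series, in which the ranges of all neighbouring groups overlapped. The spread between samples was 1.07 to 5.74 times the counting error.

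**Figure D2:**
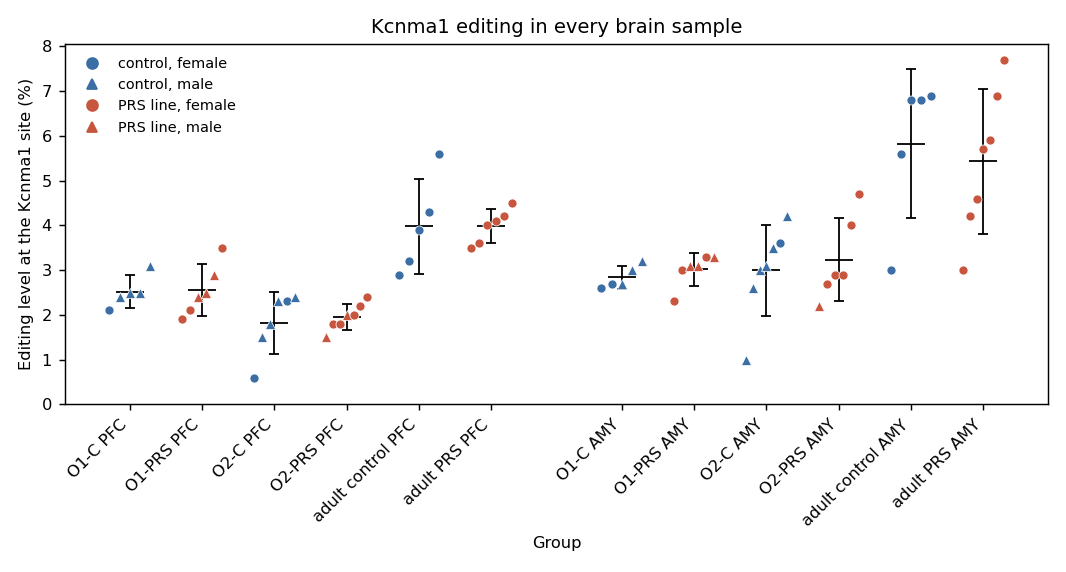
Kcnma1 editing level (%) of the 71 brain samples with at least 50 reads, with symbols, colours, means and SD as for Kcna1. Newborn samples lie at 0.6% to 4.7% and adult samples at 2.9% to 7.7%, so the ages overlap.

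The first question was whether editing differs between neonatal and adult brain. Kcna1 rose with age in both regions and both lines. In the PFC of O1-C newborns the 5 levels were 1.3%, 1.8%, 1.9%, 2.3% and 3.1%, and in adult control PFC they were 13.5%, 15.1%, 16.9%, 18.2% and 20.9%. The groups lay far apart, and no newborn value came near the lowest adult value. The mean rose from 2.08% ± 0.672 (SD, n = 5) to 16.9% ± 2.85 (n = 5), which is 14.8 percentage points higher (exact rank test, which is a Mann-Whitney test with enumerated p, two-sided, adjusted p = 0.0191). An age difference was common in this comparison, in which 34.7% of the 144 sites tested, and 65.9% of the nonsynonymous sites, passed the FDR of 0.1. No overlap between groups was seen at 27.8% of the 144 sites. Kcna1 had the highest ratio of adult to newborn mean among the 41 nonsynonymous sites, at 8.14, whereas it ranked 16 by the difference. By the ratio it ranked 5 of 40 in control AMY, 1 of 40 in PRS PFC and 5 of 41 in PRS AMY.

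In the AMY of O1-C newborns Kcna1 levels were 3.8%, 4.1%, 4.5%, 5.2% and 6.7%, and in adult control AMY 14.4%, 14.7%, 18.7%, 22.8% and 23.3%. The groups again did not overlap, as at 39.4% of the 142 sites tested. The mean rose from 4.86% ± 1.15 to 18.8% ± 4.26 (n = 5 each), by 13.9 points or a ratio of 3.86 (exact rank test, adjusted p = 0.0227, with 50% of the sites passing). In the stress line the mean rose from 2.08% ± 1.51 to 17.0% ± 1.82 in the PFC (n = 6 each, adjusted p = 0.00456, exact rank test, 51.4% of sites passing and 30.6% not overlapping). In the AMY of that line it rose from 4.60% ± 2.84 (n = 6) to 17.8% ± 3.33 (n = 7, adjusted p = 0.00251, exact rank test, 56.2% of sites passing and 40.4% not overlapping). Each of the 4 raw p-values was the smallest that the group sizes allow.

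Kcnma1 also rose with age in all 4 comparisons, by less. In the PFC, O1-C levels were 2.1%, 2.4%, 2.5%, 2.5% and 3.1%, and adult control levels 2.9%, 3.2%, 3.9%, 4.3% and 5.6%. A single adult sample, at 2.9%, lay within the newborn range. The mean rose from 2.52% ± 0.363 to 3.98% ± 1.06 (n = 5 each), by 1.46 points (adjusted p = 0.0325, exact rank test). In the AMY, O1-C levels were 2.6%, 2.7%, 2.7%, 3.0% and 3.2%, and adult control levels 3.0%, 5.6%, 6.8%, 6.8% and 6.9%. Of the 5 adult samples 4 exceeded every newborn sample. The mean rose from 2.84% ± 0.251 to 5.82% ± 1.66, by 2.98 points or a ratio of 2.05 (adjusted p = 0.0501, exact rank test). In the stress line Kcnma1 rose by 1.43 points in the PFC (adjusted p = 0.00825) and by 2.41 points in the AMY (adjusted p = 0.0293, both exact rank tests). Kcnma1 ranked 17 of 41 nonsynonymous sites by the ratio of means in control PFC and 10 of 40 in control AMY.

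**Figure D3:**
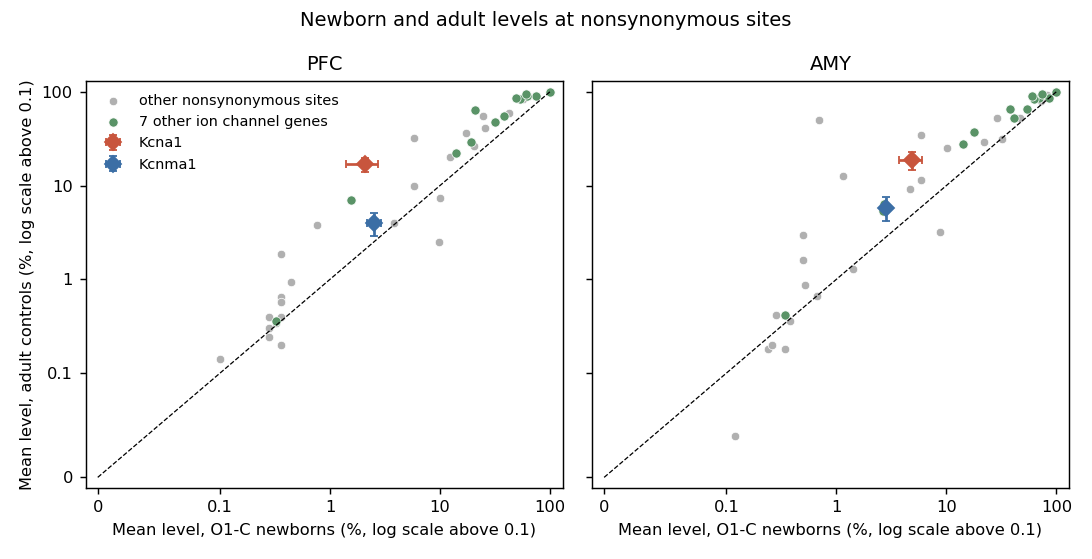
Mean editing level (%) of O1-C newborns against adult controls at each nonsynonymous site in PFC and AMY, on axes that are logarithmic above 0.1%. Bars give the SD of Kcna1 and Kcnma1, the dashed line marks equal levels, and in the PFC Kcna1 lies farthest above it by ratio, at 2.08% against 16.9%.

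Adults were all female and newborns of both sexes, and the library numbers of most adults fell in another set than those of the newborn males. The adults were also F0 and the newborns compared with them F1, so age and generation cannot be told apart. In the stress line only the adults had themselves been stressed, so age and direct stress cannot be told apart there either. Among F1 newborn and adult females of the stress line, whose PFC libraries all came from set 1, Kcna1 was 0.4% to 1.8% in 3 newborns and 14.1% to 19.1% in 6 adults. Kcnma1 was 1.9% to 3.5% in these newborns and 3.5% to 4.5% in these adults. With labels permuted only within library sets, the exact test gave adjusted p = 0.0227 for Kcna1 and 0.0381 for Kcnma1 in PRS PFC, and 0.0976 and 0.170 in PRS AMY. The Kcnma1 call in PRS AMY was thus lost. Only 21 arrangements exist within sets there. The raw p was 0.0476 for Kcna1, the smallest they allow, and 0.0952 for Kcnma1 (exact test). With labels permuted within sex, which is an alternative chosen after the data were seen, the exact test gave 0.0227 and 0.0381 in PRS PFC, where sex and set coincide, and 0.0171 and 0.0621 in PRS AMY. In control AMY both calls were lost within sex, at adjusted p = 0.119 for Kcna1 and Kcnma1, each with the smallest raw p of 0.0476 that its 21 arrangements allow in this exact test, and 0 sites of the panel passed there. In control PFC, by sex or by set, and in control AMY by set, too few arrangements were left for a test. The O1-C females had Kcna1 levels of 2.3% in the PFC and 4.1% and 6.7% in the AMY.

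The age effect was next compared between regions. Kcna1 gained 14.8 points in control PFC and 13.9 in control AMY, a difference between effects of -0.92 points (exact permutation test, adjusted p = 0.87, or 0.18 on the logit scale, where the ratio counts for more). Kcnma1 gained 1.46 points in control PFC and 2.98 in control AMY, a difference of 1.52 points (exact permutation test, adjusted p = 0.385). In the stress line neither site passed either, and 0.714% of sites in the control line and 6.25% in the stress line passed this test.

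The second question was whether PFC and AMY differ. In newborns Kcna1 was higher in the AMY in all 4 groups, and 3 of these differences passed. In O2-C the lowest, median and highest levels were 0.3%, 1.7% and 2.8% in the PFC (n = 7) and 2.9%, 4.7% and 5.8% in the AMY (n = 7). The groups met but did not overlap, which held for 4.23% of the 142 sites tested. The mean was 2.96 points higher in the AMY, a ratio of 2.83 (exact rank test, adjusted p = 0.00777, with 17.6% of all sites and 30% of nonsynonymous sites passing). Within library sets the AMY samples stayed higher, at 5.2% against 0.8% to 2.8% in library set 2 and 2.9% to 5.8% against 0.3% to 1.4% in set 4 (adjusted p = 0.0298, labels permuted within sets, exact test).

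In O1-C the AMY levels of 3.8% to 6.7% lay above the PFC levels of 1.3% to 3.1% (n = 5 each). The difference was 2.78 points (exact rank test, adjusted p = 0.0542, with 4.79% of all sites and 17.1% of nonsynonymous sites passing, and 6.85% of all sites not overlapping). This call was close to the threshold. The adjusted p was 0.130 with labels permuted within library sets and 0.108 without O1-C PFC replicates 43 or 66, or without O1-C AMY replicates 46, 56, 59 or 61. The groups overlapped in no run with 1 sample left out, and each raw p was 0.0159 (exact rank test), the smallest those group sizes allow. Which of these runs stayed under 0.1 thus depended on the other sites adjusted with Kcna1. Within library sets the raw p was 0.0286 over 70 arrangements (exact test). In O2-PRS the PFC ran from 1.8% to 6.9% with a median of 2.3% (n = 7) and the AMY from 6.0% to 11.1% with a median of 6.5% (n = 6). The single overlapping PFC sample was replicate 124, at 6.9%. The difference was 4.20 points (exact rank test, adjusted p = 0.0926, with 5.48% of all sites and 19.5% of nonsynonymous sites passing). It passed at adjusted p = 0.0222 (exact rank test) without replicate 124, and leaving out any sample other than replicate 124 or O2-PRS AMY replicate 146 took the adjusted p above 0.1, up to 0.179. In O1-PRS the means were 2.08% and 4.60% and the difference did not pass (exact rank test, adjusted p = 0.444, with 4.79% of all sites and 17.1% of nonsynonymous sites passing). The AMY group held 1 sample, replicate 53, at 0.2% in 12938 reads (95% Wilson interval 0.119 to 0.267), and without it the adjusted p was 0.069. Without replicate 55, at 9.1%, the difference was 1.62 points (adjusted p = 0.574, exact rank test).

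Kcnma1 was higher in the AMY by 0.32 to 1.28 points in the 4 newborn groups, and 2 differences passed. In O2-PRS the PFC levels were 1.5% to 2.4% with a median of 2.0% (n = 7) and the AMY levels 2.2% to 4.7% with a median of 2.9% (n = 6). The ranges overlapped at their edge only, and the difference was 1.28 points (exact rank test, adjusted p = 0.0398). This call was lost with reads pooled over samples (difference 0.883 points, adjusted p = 0.15, exact permutation test) and with the adjustment made over all sites together (adjusted p = 0.106). In O2-C the medians were 2.05% (n = 6) and 3.1% (n = 7) and the difference was 1.18 points (exact rank test, adjusted p = 0.0721). That call did not hold when any 1 of O2-C PFC replicates 130, 131 and 157 or O2-C AMY replicates 121, 136, 138, 141, 142 and 145 was left out, with adjusted p up to 0.156. The difference was 0.32 points in O1-C (adjusted p = 0.225) and 0.467 points in O1-PRS (adjusted p = 0.462, both exact rank tests). Without O1-C PFC replicate 69 the adjusted p in O1-C was 0.0814.

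In adults neither site passed. Kcna1 was 1.86 points higher in the AMY of adult controls, with an interval of -3.8 to 8.2 points for the median pairwise difference (exact rank test, adjusted p = 0.811, with 0% of the 140 sites passing and 18 of them at an unadjusted p under 0.05). In adult PRS it was 0.738 points higher, with an interval of -3.3 to 4.4 (adjusted p = 0.95, exact rank test, 13.9% of sites passing). Kcnma1 was 1.84 points higher in the AMY of controls (interval -0.9 to 3.9, adjusted p = 0.444) and 1.45 points higher in PRS (interval -0.3 to 3.3, adjusted p = 0.174, both exact rank tests). Without adult PRS AMY replicate 6 the latter had an adjusted p of 0.0476. A region difference that passed in newborns and not in adults was not shown to differ between the ages. For F1 newborns the test of that difference is the one given above for the age effect, which did not pass at either site, and F2 newborns were not tested against adults.

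Kcnma1 levels in adult AMY moved with read depth. The 2 samples at 3.0% were those with the fewest reads, 1778 in the control and 1129 in the PRS group, and the other 10 ran from 4.2% to 7.7%. Over the 12 samples, as deviations from their group means, Pearson's r between level and log10 reads was 0.827 (permutation p = 0.00113, adjusted p = 0.0136 over 12 such relations) and Spearman's rho 0.662 (permutation p = 0.0249, adjusted p = 0.299). Without the 2 samples farthest from the median depth r was 0.552, and within library sets it was 0.88. The other 7 relations of level with depth, over both genes and 4 combinations of age and region, had Pearson's r from -0.479 to 0.302 (adjusted p of at least 0.702), which became -0.448 to 0.264 without the 2 samples of extreme depth, and Spearman's rho from -0.627 to 0.282 (adjusted p of at least 0.379, permutation tests). The part of depth in the Kcnma1 level of adult AMY was not tested. Kcna1 and Kcnma1 levels were not related across samples in any of the 4 combinations at an adjusted p under 0.1, with Pearson's r of -0.331 to 0.161 (permutation tests, adjusted p of 0.787 to 0.835, n = 11 to 24) and Spearman's rho of -0.364 to 0.14 (adjusted p of 0.614 to 0.838). Without the 2 samples of most extreme Kcna1 level r was -0.442 to 0.232.

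**Figure D4:**
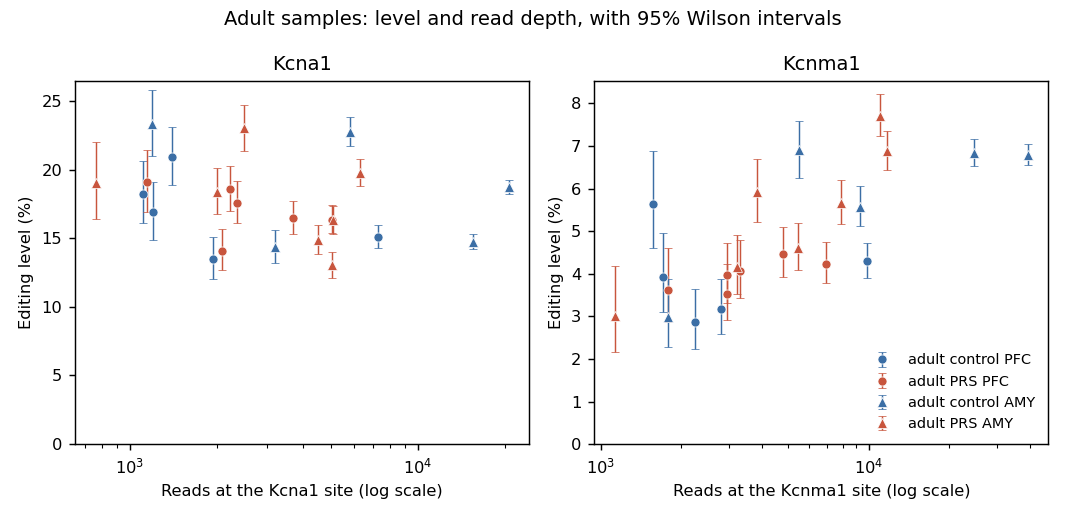
Editing level (%) of each adult sample against its reads at the site (logarithmic axis), with 95% Wilson intervals that cover counting error only, circles for PFC and triangles for AMY. At Kcnma1 the AMY samples with 1129 and 1778 reads are at 3.0% and the others at 4.2% to 7.7%, whereas at Kcna1 the AMY samples with the fewest reads are not the lowest.

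The third question was whether stress of the F0 females altered editing in them or in their descendants. In the F2 AMY Kcna1 rose in the stress line. The 7 O2-C samples had a lowest, median and highest level of 2.9%, 4.7% and 5.8%, and the 6 O2-PRS samples 6.0%, 6.5% and 11.1%. The groups did not overlap, as at 2.74% of the 146 sites. The mean rose from 4.57% ± 0.916 to 7.27% ± 1.95, by 2.70 points or a ratio of 1.59 (exact rank test, adjusted p = 0.0159, with 2.05% of all sites and 7.32% of nonsynonymous sites passing). The interval for the median pairwise difference was 1.1 to 5.3 points. Without O2-PRS AMY replicate 116, at 11.1%, the difference was 1.93 points, and leaving out each sample in turn gave adjusted p of 0.0222 to 0.0345.

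Sex was unevenly spread over these F2 groups, with 1 female and 6 males in O2-C AMY and 5 females and 1 male in O2-PRS AMY. The O2-C female had 4.7%, and the 5 O2-PRS females 6.0% to 11.1%. The 6 O2-C males had 2.9% to 5.8%, and the O2-PRS male 6.1%. The direction was the same in either sex, and with labels permuted within sex the raw p was 0.0238, which is 1 in the 42 possible arrangements and the smallest they can give, with an adjusted p of 0.244 (exact test). The call was thus lost with sex held fixed. With labels permuted within library sets it was kept (adjusted p = 0.0217, exact test), at 5.2% against 6.1% and 6.7% in set 2 and 2.9% to 5.8% against 6.0% to 11.1% in set 4.

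In the F2 PFC Kcna1 was 0.3%, 1.55% and 2.8% (lowest, median and highest, n = 6) in O2-C and 1.8%, 2.3% and 6.9% in O2-PRS (n = 7). The difference of 1.55 points did not pass (exact rank test, p = 0.0251, adjusted p = 0.201, with 1.41% of all sites and 5% of nonsynonymous sites passing). Without O2-C PFC replicate 154, at 2.8%, the adjusted p was 0.0673, and without O2-PRS PFC replicate 124, at 6.9%, the difference was 0.917 points (adjusted p = 0.289, exact rank test). Females had 0.3% and 1.4% in O2-C against 1.8% to 6.9% in O2-PRS, and males 0.8% to 2.8% against 2.3% and 3.0%. In these PFC samples sex and library set coincided and cannot be told apart. The F2 stress effects on Kcna1 in AMY and PFC, 2.70 and 1.55 points, differed by 1.14 points, which did not pass (exact permutation test, adjusted p = 1, with 0% of sites passing and 8 of 142 at an unadjusted p under 0.05).

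**Figure D5:**
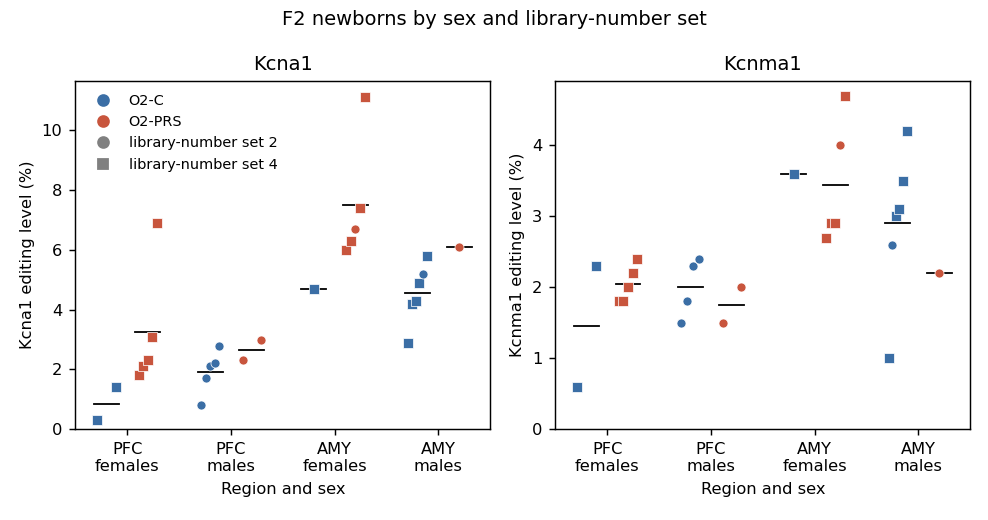
Kcna1 and Kcnma1 editing levels (%) in F2 newborns by region and sex, with O2-C in blue and O2-PRS in red, circles and squares for library sets 2 and 4, and dashes for means. In the AMY each O2-PRS sample, at 6.0% to 11.1%, is above each O2-C sample, at 2.9% to 5.8%, at Kcna1 and not at Kcnma1.

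No stress difference passed at either site in F1 newborns or in adults. Kcna1 differed by 0.00333 points in O1 PFC (interval -1.5 to 2.5, adjusted p = 0.954) and by -0.26 points in O1 AMY (interval -3.9 to 3.9, adjusted p = 0.994, both exact rank tests). In adults it differed by 0.113 points in the PFC (interval -4.1 to 4.0, adjusted p = 1) and by -1.01 points in the AMY (interval -6.5 to 4.3, adjusted p = 0.976, both exact rank tests). The tests called 0% of sites in O1 PFC and in adult PFC and AMY, where 10, 6 and 3 sites had an unadjusted p under 0.05, and 1.37% in O1 AMY. The F2 and F1 stress effects on Kcna1 in the AMY differed by 2.95 points, which did not pass (exact permutation test, p = 0.0724, adjusted p = 0.307, with 2.74% of sites passing), nor did those in the PFC, which differed by 1.55 points (adjusted p = 0.442, exact permutation test, 2.82% of sites passing).

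Kcnma1 showed no stress difference that passed in any of the 6 brain comparisons. Its differences ran from -0.391 points in adult AMY to 0.233 points in F2 AMY (adjusted p of 0.674 to 1, exact rank tests). In F2 AMY the interval was -0.9 to 1.7 points, and in F2 PFC -0.5 to 0.9.

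Newborn controls of the F1 and F2 generations were compared as a check of how far the level varies between cohorts. Kcna1 differed by -0.563 points in the PFC (adjusted p = 0.658) and -0.289 points in the AMY (adjusted p = 1, both exact rank tests), while 0% and 4.11% of sites passed. Kcnma1 in the PFC was 2.1% to 3.1% in O1-C and 0.6% to 2.4% in O2-C, a difference of -0.703 points that did not pass (exact rank test, p = 0.0281, adjusted p = 0.303, with 14 of 142 sites at an unadjusted p under 0.05). In the AMY it differed by 0.16 points (adjusted p = 0.725, exact rank test). These PFC groups shared no library set, so generation and set cannot be told apart.

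The comparisons above share groups, for instance O1-C PFC serves in those of age, region, stress and generation, and they are not independent of each other.

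In oocytes Kcnma1 editing was near 0 in all but 1 sample. The 4 control samples with at least 50 reads had 0.0%, 0.5%, 0.6% and 0.6%, in 173 to 4204 reads. The 2 PRS samples had 0.1% in 1476 reads and 97.3% in 586 reads, the latter being replicate 4-2s with a 95% Wilson interval of 95.6 to 98.3. The levels of the 5 low samples lay below that of each of the 23 adult brain samples, and the level of replicate 4-2s above each of them. Control replicates 169 and 1-3c and PRS replicate 170 each rested on 1 edited read. With 173 reads, replicate 169 had a 95% Wilson interval of 0.102 to 3.20, which reaches the lowest adult level of 2.9%. With all 6 oocyte samples the mean, 16.5%, was above that of adult brain while the median, 0.55%, was below the adult medians of 4.0% in PFC (n = 11) and 5.8% in AMY (n = 12). The rank test passed against PFC (exact rank test, adjusted p = 0.0507, with 54.1% of the 61 sites passing) and against AMY (adjusted p = 0.044, 57.4% of sites passing). All oocyte libraries fell in sets 2 and 4 and all adult PFC libraries in set 1, so tissue and library set cannot be told apart there. Of the adult AMY libraries 2 control and 2 PRS samples fell in set 2, and the rest in set 1. Without replicate 4-2s the oocyte mean was 0.36% ± 0.288 (n = 5), lower by 3.62 and 5.23 points (exact rank test, adjusted p = 0.00204 and 0.00125). Leaving out replicate 4-2s thus turned the direction of the means, and leaving out any other single oocyte sample that was measured took the adjusted p to 0.103 to 0.124 against PFC. Against AMY it went to 0.103 to 0.111 without control replicates 163, 169 or 1-3c or PRS replicate 170, and to 0.0978 without control replicate 166. With only 2 PRS samples no stress test was made. Kcna1 could not be compared, since the oocyte samples had 1 to 28 reads there.

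The levels of other edited ion channels are given for scale. The list holds the 14 nonsynonymous sites of Cacna1d (a voltage-gated calcium channel), Gria2, Gria3 and Gria4 (AMPA receptor subunits), Grik1 and Grik2 (kainate receptor subunits) and Gabra3 (a GABA-A receptor subunit). In each of the 4 age comparisons 12 of the 14 sites passed as higher in adults and 0 as lower. Over all sites, 50 of 144 passed as higher in control PFC, 72 of 144 in PRS PFC, 68 of 142 in control AMY and 79 of 146 in PRS AMY, and 52.5% to 65.9% of nonsynonymous sites passed in either direction. The median difference of the list was 12.4 to 17.9 points beside 1.30 to 2.21 points over all sites tested. Kcna1, at 13.2 to 14.9 points, lay within that range of medians, and Kcnma1, at 1.43 to 2.98 points, did not. Between newborn regions 4 of 14 passed as higher in the AMY in O1-C (6 of 146 over all sites), 4 in O1-PRS (7 of 146), 7 in O2-C (24 of 142) and 2 in O2-PRS (7 of 146), and 0 of the 14 passed as lower. Among nonsynonymous sites, which were adjusted separately, 17.1% passed in O1-C, 17.1% in O1-PRS, 30% in O2-C and 19.5% in O2-PRS, in either direction. In the F2 AMY stress comparison, where Kcna1 rose, 0 of the 14 passed, with a median difference of 0.0929 points beside 0.0405 points over all sites. In the O1 AMY stress comparison 2 of the 14 passed as lower (2 of 146 over all sites). The median difference there was -3.17 points beside -0.0567 over all sites. The list had 0 calls in the other brain stress comparisons. Between adult regions 4 of the 14 passed as higher in the AMY and 3 as lower in PRS (15 and 5 of 144 over all sites), and 0 in controls.

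The sites whose mean levels over the 12 brain groups ran most like those of Kcna1 were found among 137 other sites measured in every group. Among the closest were a site in the 3′ UTR of Zfp612, a zinc finger gene (chromosome 19, position 39972769), and a synonymous site of Gria2 (chromosome 2, position 172272248), each with a Spearman correlation of 0.972. For Kcnma1 the closest was Kcna1 itself, with Spearman 0.958 and Pearson 0.916, followed by the same Gria2 site and a 5′ UTR site of uc007fvm.2 (chromosome 20, position 11709486), both at Spearman 0.937. These describe 12 means that come from the same libraries and fall into newborn and adult groups, and the median Spearman correlation over all 137 sites was 0.727 for Kcna1 and 0.685 for Kcnma1.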

How the data were processed

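mmPCR-seq (microfluidic multiplex PCR followed by sequencing) was applied to 85 samples. The authors mapped reads to rn4 and exonic splice-junction sequence with BWA (version not given in the sources used here; SAMtools is also named in the submitters' notes), and deposited, for each site and sample, counts of reads and of edited reads and the editing level as a fraction rounded to 3 decimals. The minimum of 50 reads was not applied in the deposited tables and was applied here. The deposited levels, as percent, were compared at each site that reached 50 reads in 3 or more samples per group by a two-sided Mann-Whitney U test whose p-value enumerates all assignments of samples to groups (ties share a mean rank). P-values were adjusted by Benjamini-Hochberg over all tested sites, nonsynonymous and other sites separately (together for oocytes), at FDR 0.1. Differences between 2 effects used an exact permutation test. Intervals of differences invert the rank test at a coverage of at least 95%, Wilson intervals are at 95%, and PCR reads are not independent molecules, so the latter cover counting error only. Correlations used 100000 permutations within groups and were chosen after the data were seen. The 146 sites are those the study lists, matched by position. Brain samples with over 30% of sites under 50 reads were left out of the age, stress and generation comparisons. Kcna1 and Kcnma1, the list of 14 ion channel sites and the rule for similar sites (the 3 highest Spearman correlations, of which 1 for Kcna1 is not reported here) were chosen with earlier results of these data known. Alternatives were a minimum of 200 reads or none, a permutation test of means, pooled reads, levels from counts, joint adjustment, labels permuted within library sets or sex, and each sample left out. Primer sequences come from the study's primer list. Python 3.11.15 scripts with numpy 2.4.6, scipy 1.17.1 and pandas 2.3.3 were tested on simulated data.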

Additional observations from a re-analysis of the deposited data

Results flagged for a closer look

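Kcna1 in O2-PRS PFC had 1 sample far from the rest, replicate 124, at 6.9% against 1.8% to 3.1% in the other 6. Its Kcnma1 level was 1.8%, and it was the highest of its group at 7 and the lowest at 1 of 40 other nonsynonymous sites. Kcna1 in O2-PRS AMY had replicate 116 at 11.1% against 6.0% to 7.4% in the other 5, and this sample was the highest of its group at 11 and the lowest at 1 of 40 other nonsynonymous sites. Kcnma1 in O1-PRS AMY had replicate 49 at 2.3% against 3.0% to 3.3%, in 18708 reads, and this sample was the lowest of its group at 14 of 40 other nonsynonymous sites. Kcnma1 in control oocytes had replicate 1-3c at 0.0% against 0.5% and 0.6%, with 1 edited read of 2244. Chance alone marks about 1 in 20 groups as holding such a sample, and 5 of 26 groups did here, with the oocytes counted both as 1 group and by line.

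Kcnma1 in oocytes had PRS replicate 4-2s at 97.3%, with 570 edited of 586 reads, against 0.0% to 0.6% in the other 5 samples with at least 50 reads. In the same sample Hip1 was at 58.1% in 859 reads, against at most 0.4% in 5 other oocyte samples, and 48 of the other 56 sites it measured were at most 1%. Gabra3 was at 99.1% in 1946 reads, against at most 60.0% in 2 other oocyte samples, and other oocyte samples reached 97.6% to 99.6% at 6 Ankrd28 sites where replicate 4-2s was at 0.0% to 6.9%. Hip1, Gabra3 and Ankrd28 were picked out after their values were seen.

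Kcna1 reads of the oocytes, which no comparison uses because every sample is under 50 reads, held 11 edited among 129 reads over the 13 samples, or 8.53% (95% Wilson interval 4.83 to 14.6), with edited reads in 5 samples.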

How the results depend on the processing

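Values below are adjusted p-values. No paired analysis was possible because no replicate number occurs in both groups compared. Of 312 values under settings other than leaving out a sample, 285 kept their direction and their side of the FDR of 0.1, 19 lost a call, 1 gained one and 7 changed sign. Of 471 values with 1 sample left out, 402 kept both, 35 lost a call, 4 gained one and 30 changed sign. The age calls held in each alternative run except with labels permuted within sex in control AMY (0.119 for Kcna1 and Kcnma1, with 0 sites called in place of 71) and, for Kcnma1, within library sets in PRS AMY (0.1698). Permuting within sex for age was chosen after the data were seen. The F2 AMY stress call of Kcna1 was lost with labels permuted within sex (0.244). In the region comparisons Kcna1 in O1-C was lost with joint adjustment (0.1159) and within library sets (0.1302), and Kcna1 in O2-PRS with no minimum (0.1051), levels from counts (0.1009), joint adjustment (0.1779) and within sex (0.1007). Kcnma1 lost the O2-C region call in the test of means (0.1183) and with joint adjustment (0.1082), lost the O2-PRS call with pooled reads (0.1499) and joint adjustment (0.1064), and gained one in adult PRS with pooled reads (0.05917).

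Kcnma1 in oocytes lost its call with 200 reads (0.1236 against PFC, 0.1057 against AMY), in the test of means (0.5126 and 0.4841) and with pooled reads (0.8897, and 0.5301 with the sign turned). Pooled reads also turned the sign, with no call, of the stress difference of Kcnma1 in O1 PFC (0.9416) and O2 AMY (0.9872) and of Kcna1 in O1 AMY (0.9594), and of the generation difference of Kcnma1 in AMY (0.9331). The logit scale turned that of the F2 stress effect in AMY against PFC (0.9845 for Kcna1, 0.9949 for Kcnma1). The cause of these changes was not tested.

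Leaving out each sample in turn gave, for the Kcna1 region difference, 0.07231 to 0.1085 in O1-C, 0.06902 to 0.5824 in O1-PRS, 0.02219 to 0.1788 in O2-PRS and 0.6962 to 1 in adult PRS. For Kcnma1 it gave 0.08135 to 0.4339 in O1-C, 0.01332 to 0.1561 in O2-C and 0.04762 to 0.3078 in adult PRS. For the stress difference of Kcna1 the range was 0.06734 to 0.3463 in O2 PFC, 0.8739 to 1 in O1 PFC, 0.8436 to 1 in O1 AMY, 0.9377 to 1 in adult PFC and 0.9669 to 1 in adult AMY. For that of Kcnma1 it was 0.804 to 1 in O2 PFC, 0.8731 to 1 in O2 AMY, 0.905 to 1 in O1 PFC, 0.9188 to 1 in adult PFC and 0.9136 to 1 in adult AMY. The generation difference in AMY ran from 0.8258 to 1 for Kcna1 and 0.386 to 0.9499 for Kcnma1, and Kcnma1 in oocytes from 0.002043 to 0.1241 against PFC and 0.00125 to 0.111 against AMY. Over these alternatives the number of sites called rose from 50 to 76 at most in the age comparison of control PFC, ran from 0 to 9 around 7 in the O1-C region comparison and from 2 to 11 around 8 in O2-PRS, from 4 to 10 around 7 in O1-PRS and from 12 to 30 around 20 in adult PRS. For stress it ran from 0 to 4 around 3 in F2 AMY, 0 to 4 around 2 in F2 PFC and 0 to 6 around 2 in O1 AMY, and for generation from 0 to 11 around 6 in AMY and 0 to 2 around 0 in PFC. With no minimum the oocyte counts rose from 33 and 35 to 117 and 120. Labels could not be permuted within library sets in the control age and generation comparisons, nor within sex in control PFC by age, where 1 to 12 arrangements exist. Depth left 6 of 13 oocyte samples at Kcnma1 and none at Kcna1.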
